A study of Mus musculus with 28 samples.

Results

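The genes of cholesterol synthesis, its control, its transport and of fatty acid synthesis and desaturation were followed across 28 RNA sequencing libraries of the mouse ventromedial prefrontal cortex. The 34 genes were taken by name for their known role, with earlier results of these data known, out of 52636 genes in the files. They comprise 18 genes of sterol synthesis, 5 of its regulation, 5 of sterol uptake, transport and efflux, and 6 of fatty acid synthesis and desaturation. Counts were found for 33 of them. Mvd, a mevalonate pathway decarboxylase, was listed at 0 in all 28 libraries, and its whole span lies inside another annotated gene, Gm20388. No level can be given for it.

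Female mice received in this cortical region a control virus labelled Lac_Z, the name of a bacterial enzyme gene, or a virus labelled Slit1 KD, for knockdown of a secreted axon guidance protein. Within each virus 7 mice had no stress and 7 had 3 days of a stress procedure abbreviated sCVS. The 4 groups are LacZ unstressed, LacZ stressed, knockdown unstressed and knockdown stressed, and each library came from 1 mouse. Every group therefore carried a virus, and the tissue was taken by needle from brain slices, so it may also have held cells without virus. The strain, the age, the promoter of the virus and the knockdown sequence are not given in the sources used here.

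Cells make cholesterol from acetyl units through the mevalonate pathway, squalene and lanosterol. When sterol in the endoplasmic reticulum is low, SCAP escorts the SREBP proteins to the Golgi, where they are cut and then drive transcription of most of the enzymes. INSIG proteins hold the complex back when sterol is plentiful. The brain makes nearly all of its own cholesterol, astrocytes and oligodendrocytes being major producers, and APOE particles loaded through ABCA1 carry it between cells.

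Total counts per library ran from 30.6 to 44.3 M with a median of 39.6 M. Summed markers of excitatory neurons (425 to 972 CPM, counts scaled per M fragments of the library), astrocytes (2566 to 5020 CPM) and oligodendrocytes (311 to 2374 CPM) were present in every library, while the precursor marker Gpr17 was at 0. In libraries labelled knockdown, Slit1 was not detectably lower: the log2 difference from LacZ was -0.02 ± 0.30 (SE), averaged over both stress states (edgeR's quasi-likelihood test, Benjamini-Hochberg adjusted p = 0.9999). These libraries are therefore named by their label throughout. Bone genes summed to 789 CPM in knockdown stressed 2, against a median of 3.81 CPM. Oligodendrocyte markers summed to 2374 CPM in knockdown unstressed 7, against a median of 602 CPM. Striatal markers were highest in knockdown stressed 7, at 139 CPM against a median of 41.5 CPM. In bulk tissue, fewer cells of a type and less RNA per cell cannot be told apart.

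SREBP proteins bind the sterol regulatory element, often next to NF-Y, a factor that binds CCAAT boxes. Promoter windows from RefSeq (GRCm38.p6), reaching from 250 bases before to 50 bases after a start, were found for 26 of the 34 genes, 36 windows in all. The full element and the 3 shorter motifs named here were searched on both strands. The 250 bases before the start are printed 5′ to 3′ for 6 genes that moved together, or opposite, across libraries, as described further on. Capitals mark the element core TCACNCCAC, the NF-Y box, which is CCAAT or on the other strand reads ATTGG, and the E-box, which is CACGTG.
Hmgcs1, chr13:119690101-119690350, plus strand: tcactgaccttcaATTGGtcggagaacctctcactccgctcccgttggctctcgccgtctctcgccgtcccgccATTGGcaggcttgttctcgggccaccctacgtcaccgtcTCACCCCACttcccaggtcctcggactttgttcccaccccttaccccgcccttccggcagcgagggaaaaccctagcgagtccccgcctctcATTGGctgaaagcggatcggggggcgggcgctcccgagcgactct
Idi1, chr13:8885356-8885605, plus strand: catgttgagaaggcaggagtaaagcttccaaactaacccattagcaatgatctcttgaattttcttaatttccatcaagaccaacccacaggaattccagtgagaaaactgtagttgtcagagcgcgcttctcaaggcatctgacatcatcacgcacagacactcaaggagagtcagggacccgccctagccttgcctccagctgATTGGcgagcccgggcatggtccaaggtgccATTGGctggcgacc
Cyp51, chr5:4104698-4104947, minus strand: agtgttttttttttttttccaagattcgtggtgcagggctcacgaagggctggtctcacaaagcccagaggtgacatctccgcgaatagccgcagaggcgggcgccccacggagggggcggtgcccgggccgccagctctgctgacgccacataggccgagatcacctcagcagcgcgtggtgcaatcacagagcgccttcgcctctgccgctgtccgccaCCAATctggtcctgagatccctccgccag
Msmo1, chr8:64733579-64733828, minus strand: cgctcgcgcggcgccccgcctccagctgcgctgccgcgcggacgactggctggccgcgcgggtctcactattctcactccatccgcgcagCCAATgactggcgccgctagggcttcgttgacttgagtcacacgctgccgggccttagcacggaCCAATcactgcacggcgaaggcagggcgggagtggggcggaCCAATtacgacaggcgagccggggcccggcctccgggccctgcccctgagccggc
Insig1, chr5:28071162-28071411, plus strand: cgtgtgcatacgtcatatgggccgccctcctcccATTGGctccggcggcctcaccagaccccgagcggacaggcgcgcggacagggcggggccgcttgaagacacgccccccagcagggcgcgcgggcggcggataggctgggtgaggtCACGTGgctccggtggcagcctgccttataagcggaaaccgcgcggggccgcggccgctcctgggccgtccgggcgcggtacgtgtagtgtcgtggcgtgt
Abca1, chr4:53159896-53160145, minus strand: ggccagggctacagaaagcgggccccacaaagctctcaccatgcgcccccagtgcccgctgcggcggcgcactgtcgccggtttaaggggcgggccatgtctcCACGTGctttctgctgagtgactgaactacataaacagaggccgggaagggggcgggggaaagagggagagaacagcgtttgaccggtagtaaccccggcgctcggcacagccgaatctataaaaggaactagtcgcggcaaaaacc

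The full sterol regulatory element was in 0 of the 36 windows and in 0.0913% of all 32851 windows. Its shorter core TCACNCCAC, which the full element contains, was in 1 window, that of Hmgcs1, and in 1.24% of all windows. CCAAT was in 21 of 36 windows (58.3%), against 37.4% of all, and in 14 of the 15 sterol synthesis genes that had a window. The E-box CACGTG was in 7 of 36 windows (19.4%), against 7.15% of all. The upstream sequence of Abca1, the cholesterol efflux pump, held CACGTG and no CCAAT. Among all genes with a window 41.1% held CCAAT. A match is only a run of letters, and no match says only that these letters are not in this window.

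Levels differed widely between genes. Divided by exon length, Scd2, the main brain stearoyl-CoA desaturase, was highest at a median of 90.4 CPM per exonic kilobase over all 28 libraries. The lipid carrier Apoe came next at 36.5, followed by Hmgcs1 at 32.7, Abca1 at 24.6 and Scd1 at 18.9 CPM per exonic kilobase. Hmgcs1 makes HMG-CoA at the entry of the mevalonate pathway. Counts cover introns too, so a length taken over the whole span is the other reading. On that scale the first 3 were Scd2 at 37.5, Apoe at 25.3 and Hmgcs1 at 8.41 CPM per kilobase, while Abca1 fell from rank 4 to rank 13 at 1.98 CPM per kilobase. Fdps, which makes farnesyl diphosphate, was lowest at 0.09 CPM per exonic kilobase with a median of 14 counts per library. Of its span 89.7% is covered by other annotated genes, so its level is uncertain. Lss (44.1%) and Hmgcs1 (34.6%) also overlap other genes, and strand was not used in counting.

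The spread between libraries was wide for some of these genes and narrow for others. Fasn, the fatty acid synthase, ranged from 2.58 CPM in knockdown unstressed 7 to 142 CPM in LacZ unstressed 1, a 54.8-fold range. Both ends rest on a single library, since the next values were 5.06 and 72.9 CPM. The range was 49.1-fold for Apoe, 32.9-fold for Mvk, the mevalonate kinase, 21.4-fold for Srebf1 and 14.4-fold for Fads2, a fatty acid desaturase. It was 1.47-fold for Nsdhl, a sterol dehydrogenase, 1.54-fold for Acaca, which makes malonyl-CoA, and 1.79-fold for Scd2. These ranges depend on the scaling (TMM factors, which are weighted trimmed means of log ratios between libraries). On total counts without those factors they were 101-fold for Fasn, 95.8-fold for Apoe, 1.82-fold for Nsdhl, 2.18-fold for Acaca and 2.36-fold for Scd2, and the narrowest were then Insig2 at 1.46-fold, Sc5d at 1.69-fold and Cyp51 at 1.72-fold. The ranges are not differences between groups, since high and low libraries occurred in each of the 4 groups.

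**Figure D1:**
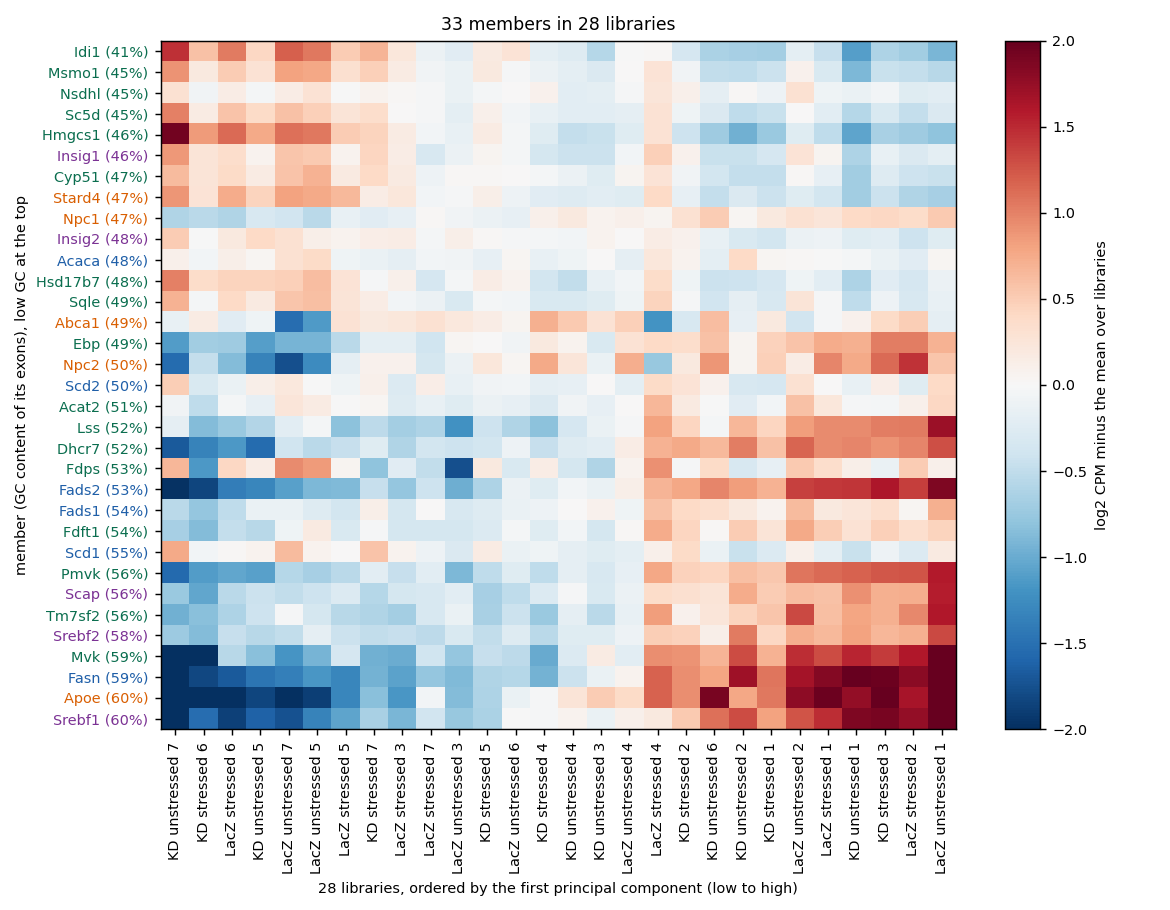
Log2 CPM of each of 33 genes (rows, ordered by the GC content of their exons, low at the top; row names coloured green for sterol synthesis, purple for regulation, orange for transport, blue for fatty acid) minus its mean over 28 libraries (columns, ordered by the first principal component of all other genes). Colours are capped at 2 log2 units. Low-GC genes such as Idi1 and Hmgcs1 are red on the left and blue on the right, and high-GC genes such as Srebf1, Apoe and Fasn show the opposite.

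Much of this spread ran along 1 axis shared with other genes. The first principal component of all tested genes other than these held 58.8% of the variance of log2 CPM. Its position in a library had r = 0.995 with the slope of that library's expression on GC content, and r = -0.857 with the percent of mitochondrial counts. Of the 33 genes, 16 rose along this component and 11 fell along it at a permutation p adjusted over 165 relations under 0.05. The smallest p that 100000 permutations can give is 1e-05. The share of all tested genes passing this test, or the same test with cell markers, is not given here. An absolute r above 0.8 was seen for 22 of 33 genes, against 43.9% of all genes tested.

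Both directions held genes of every role. Rising along the component were Mvk, Pmvk, Fdft1, Lss, Tm7sf2, Ebp and Dhcr7 of sterol synthesis, Srebf1, Srebf2 and Scap of its control, Npc1, Npc2 and Apoe of transport, and Fads1, Fads2 and Fasn. Falling along it were Hmgcs1, Idi1, Sqle, Cyp51, Msmo1, Hsd17b7 and Sc5d of sterol synthesis, together with Insig1, Insig2, Stard4 and Scd1. Fdps, Nsdhl, Acat2, Abca1, Scd2 and Acaca did not pass. Of the 17 sterol enzymes 7 rose along it and 7 fell. Exonic GC content was under 49% for 14 genes, and 12 of these had a negative r. It was 49% or more for 19 genes, and 18 of these had a positive r, though for Scd2 it was only 0.00065. The limit of 49% was not among the settings fixed in advance. Across the 33 genes Spearman's rho between GC content and r was 0.813, and across 19120 genes with a GC value it was 0.751. Both are descriptions, since genes in the same libraries are not independent.

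**Figure D2:**
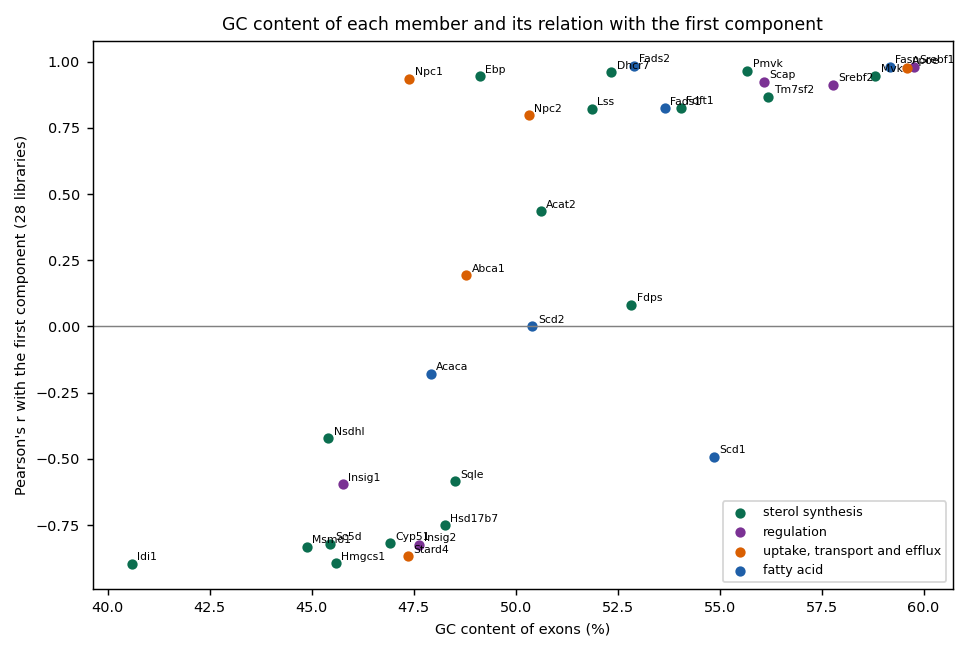
Exonic GC content in percent (x axis) against Pearson's r of log2 CPM with the first principal component over 28 libraries (y axis), 1 point for each of 33 genes, coloured by role. Of 14 genes under 49% GC, 12 lie below 0, and of 19 genes at 49% or more, 18 lie above 0, Scd2 barely at 0.00065. The limit of 49% was not fixed in advance.

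Part of this pattern depends on scaling. The TMM scaling factor ran from 0.619 in knockdown unstressed 7 to 1.26 in LacZ stressed 2 and had r = 0.939 with the component. On total counts without that factor, 19 of 33 genes had an absolute r above 0.8. The share over all tested genes on that scale is not given here, so this count has no background beside it. The sign of r then turned for Sqle, Nsdhl, Insig1, Insig2, Scd1 and Acaca. It turned for no other of the 33 genes. Hmgcs1 had r = -0.895 with TMM scaling and -0.837 on total counts, and Idi1, the isopentenyl diphosphate isomerase, had -0.896 and -0.798. The other falling genes that kept their sign had weaker values on total counts. They went from -0.869 to -0.633 for Stard4, from -0.833 to -0.501 for Msmo1, from -0.822 to -0.379 for Sc5d, from -0.819 to -0.242 for Cyp51 and from -0.751 to -0.225 for Hsd17b7. Leaving out the 2 libraries farthest along the component, knockdown unstressed 7 and LacZ unstressed 1, or removing group means, left the sign of r as it was for Hmgcs1 (-0.875 and -0.908) and for Fasn (0.977 and 0.983). Libraries with a title number over 20 had a mean component of -46.9 (n = 13) and the others 40.6 (n = 15), and the labels do not say that the number marks a batch. The numbers over 20 were unevenly spread, with 5 of 7 knockdown unstressed libraries against 2 of 7 LacZ unstressed ones, and 3 of 7 in each stressed group. Within each of these sets of libraries all 27 genes that passed kept their sign.

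The comparison of the virus labelled knockdown with LacZ asks whether sterol genes respond to it. No gene passed. Without stress, 0 of 33 genes passed an adjusted p under 0.05 by edgeR's quasi-likelihood test, against 0% of 19171 genes tested (percent called 0). At an unadjusted p under 0.05 these were 0 of 33 genes, against 0.897% of all genes by edgeR. The counts at that level were 1 by DESeq2 (all genes 1.32%) and 5 by voomWithQualityWeights (all genes 3.62%). Under stress they were 0 of 33 by edgeR (all genes 0.824%), 0 by DESeq2 (0.913%) and 0 by voomWithQualityWeights (4.54%). Averaged over both stress states they were 1 of 33 by edgeR (all genes 1.52%), 1 by DESeq2 (1.95%) and 8 by voomWithQualityWeights (6.31%). No adjusted p was under 0.05 by any of these tools. Unstressed and stressed comparisons use separate mice, and the averaged comparison uses all of them.

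The sterol synthesis enzymes had log2 differences below 0 in nearly all cases, and none was called. Without stress 16 of the 17 tested had a log2 fold change below 0, with a median of -0.21, against 52.9% of all genes and a median of -0.01. Under stress it was again 16 of 17, with a median of -0.14, against 57.7% and a median of -0.03. Averaged over both it was 17 of 17, with a median of -0.18, against 55.9% and a median of -0.02. The count of 17 became 10 with voomWithQualityWeights and 12 without LacZ unstressed 1. It was 12 with title number over 20 as a covariate. The enzymes share libraries and vary together, so 17 values are not 17 independent observations.

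Acat2 (ENSMUSG00000023832, GRCm38 chromosome 17, 12942890 to 12960747, minus strand), which joins 2 acetyl-CoA molecules ahead of the mevalonate pathway, had the smallest p. Its lowest, median and highest levels were 16.9, 22.4 and 30.1 CPM in LacZ unstressed and 17.2, 19.1 and 20.1 CPM in knockdown unstressed libraries. They were 16.8, 20.1 and 31.8 CPM in LacZ stressed and 14.1, 19.3 and 22.8 CPM in knockdown stressed libraries. The groups overlapped, with no knockdown-labelled library above 22.8 CPM and with 2 knockdown stressed libraries, at 14.1 and 16.4 CPM, below every LacZ value. Group means were 22.6 ± 4.75, 21.6 ± 4.99, 18.7 ± 1.08 and 18.8 ± 2.86 CPM (SD, n = 7 each) in LacZ unstressed, LacZ stressed, knockdown unstressed and knockdown stressed. The averaged log2 difference was -0.24 ± 0.10 (SE), with an unadjusted p of 0.0266 and an adjusted p of 0.9999 by edgeR's quasi-likelihood test. Of the 14 libraries labelled knockdown, 13 lay below the mean of the LacZ group of their stress state. With voomWithQualityWeights the difference was -0.06. Acat2 had r = 0.448 with the mean log2 CPM of excitatory neuron markers (rho = 0.494, permutation p adjusted over 165 relations 0.0457), and their part in its difference was not tested. Fdps, Lss and Acaca also passed with these markers as positive and Abca1 as negative, while 28 of the 33 genes did not pass.

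Sqle (ENSMUSG00000022351, GRCm38 chromosome 15, 59315077 to 59331192, plus strand), the squalene epoxidase and a slow step of the pathway, ranged from 33.8 to 63.2 CPM in LacZ unstressed with a median of 40.3. In knockdown unstressed libraries it ranged from 29.4 to 67.9 CPM with a median of 35.3. Under stress the range was 33.6 to 57.0 CPM (median 41.0) with LacZ and 33.5 to 46.4 CPM (median 40.5) with the knockdown label. The highest value of all, 67.9 CPM, belonged to a knockdown-labelled library, knockdown unstressed 7. The lowest, 29.4 CPM, was in the same group, below every LacZ value, and the ranges of the groups overlapped. The averaged log2 difference was -0.20 ± 0.12 (SE, unadjusted p = 0.115 and adjusted p = 0.9999, edgeR's quasi-likelihood test).

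Hmgcs1 (ENSMUSG00000093930, GRCm38 chromosome 13, 119690379 to 119708260, plus strand) had medians of 155 CPM in LacZ unstressed (97.7 to 366), 193 CPM in LacZ stressed (105 to 377), 123 CPM in knockdown unstressed (82.9 to 654) and 146 CPM in knockdown stressed (102 to 309). The lowest and the highest value both fell in knockdown unstressed. Its averaged log2 difference of -0.09 ± 0.30 (SE) was smaller than its error. Without knockdown unstressed 7 the difference was -0.39, and without LacZ stressed 6 it was 0.02.

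Cyp51, the lanosterol demethylase, had a log2 difference of -0.28 ± 0.19 (SE) without stress and -0.07 ± 0.19 under stress. Its medians were 72.4 CPM in LacZ unstressed (52.2 to 116), 80.4 in LacZ stressed (53.8 to 92.9), 60.1 in knockdown unstressed (44.2 to 110.5) and 69.7 in knockdown stressed (51.3 to 93.6). Msmo1, which removes the next methyl groups, had -0.27 ± 0.24 without stress and -0.09 ± 0.24 under stress. Tm7sf2, a sterol reductase with a median of 2.51 CPM, had -0.48 ± 0.39 and -0.28 ± 0.39. Fdps had -0.24 ± 0.35 and -0.56 ± 0.35, on counts of 2 to 31 per library and medians of 0.376 CPM in LacZ unstressed (0.0681 to 0.717), 0.457 in LacZ stressed (0.232 to 0.702), 0.382 in knockdown unstressed (0.212 to 0.580) and 0.312 in knockdown stressed (0.129 to 0.407). None of these was called. The other 10 enzymes had averaged differences from -0.25 ± 0.46 for Mvk to -0.00 ± 0.24 for Ebp, a sterol isomerase. Between them lay Pmvk, which acts after Mvk, Idi1, Fdft1 (squalene synthase), Lss (lanosterol synthase), Nsdhl and Hsd17b7, which remove the methyl groups with Msmo1, Sc5d, a desaturase, and Dhcr7, a late reductase.

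No regulator was called, and their groups overlapped. Insig1, a direct target as well as a brake of the SREBP system, had medians of 47.9 CPM in LacZ unstressed (43.0 to 72.1), 51.6 in LacZ stressed (39.3 to 68.6), 36.3 in knockdown unstressed (32.2 to 89.6) and 51.4 in knockdown stressed (38.6 to 65.9). In knockdown unstressed, 5 of 7 libraries lay below the whole LacZ unstressed range and 1 lay above it. Its log2 difference was -0.28 ± 0.20 (SE) without stress and -0.07 ± 0.20 under stress, and the interaction was 0.21 ± 0.29. Without knockdown unstressed 7 the unstressed difference was -0.52 and the interaction 0.47. Insig2, its relative, had medians of 40.9 CPM in LacZ unstressed (34.5 to 50.5), 42.9 in LacZ stressed (30.7 to 46.6), 39.3 in knockdown unstressed (32.98 to 58.1) and 40.6 in knockdown stressed (31.7 to 44.7), and an averaged difference of -0.01 ± 0.09.

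Srebf1, the regulator of fatty acid genes, had medians of 5.81 CPM in LacZ unstressed (1.71 to 29.3), 4.47 in LacZ stressed (1.56 to 19.7), 6.10 in knockdown unstressed (1.37 to 21.5) and 5.72 in knockdown stressed (1.999 to 21.9). Each group held both low and high libraries, and the averaged difference was 0.02 ± 0.48 (SE). Srebf2, the regulator of sterol genes, had medians of 26.0 CPM in LacZ unstressed (20.8 to 73.5), 21.8 in LacZ stressed (20.5 to 48.0), 24.9 in knockdown unstressed (17.8 to 60.5) and 21.0 in knockdown stressed (16.2 to 46.7), with overlapping ranges. Its averaged difference was -0.09 ± 0.24 and that of its partner Scap -0.11 ± 0.25.

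Abca1 (ENSMUSG00000015243, GRCm38 chromosome 4, 53030787 to 53159895, minus strand) differed in the other direction. Its lowest, median and highest levels were 80.1, 203 and 318 CPM in LacZ unstressed and 205, 243 and 350 CPM in knockdown unstressed libraries. They were 100.1, 268 and 322 CPM in LacZ stressed and 184, 262 and 377 CPM in knockdown stressed libraries. The 4 lowest values all came from LacZ libraries, and the upper ranges of the groups overlapped. The averaged log2 difference was 0.29 ± 0.18 (SE, unadjusted p = 0.119 and adjusted p = 0.9999, edgeR's quasi-likelihood test). Only 1 of 14 libraries labelled knockdown lay below the mean of its LacZ group. Those means include the 4 lowest values, and under stress the medians were 268 CPM with LacZ and 262 CPM with the knockdown label. Without LacZ stressed 4 the log2 difference under stress was 0.05, against 0.18 with it. Abca1 had r = -0.631 with the mean log2 CPM of excitatory neuron markers over 28 libraries (rho = -0.766, permutation p adjusted over 165 relations 0.00172), and without the 2 libraries farthest in those markers r was -0.681. The part of neuron content in its difference was not tested.

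Stard4, a cytosolic sterol carrier, had medians of 24.1 CPM in LacZ unstressed (16.4 to 45.3), 30.4 in LacZ stressed (17.2 to 43.5), 21.6 in knockdown unstressed (16.1 to 47.8) and 23.1 in knockdown stressed (19.3 to 31.3). The 4 ranges overlapped, and the averaged difference was -0.21 ± 0.18 (SE). Apoe had medians of 65.5 CPM in LacZ unstressed (17.2 to 334), 69.0 in LacZ stressed (13.7 to 277), 102 in knockdown unstressed (7.27 to 268) and 70.6 in knockdown stressed (15.1 to 357), and its averaged difference was 0.03 ± 0.56. Npc1 and Npc2, which release cholesterol from lysosomes, had 0.06 ± 0.13 and 0.12 ± 0.29.

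The fatty acid genes differed little beside their spread. Scd2 had medians of 502 CPM in LacZ unstressed (441 to 661), 473 in LacZ stressed (418 to 659), 504 in knockdown unstressed (405 to 711) and 479 in knockdown stressed (398 to 610.2), and the 4 ranges overlapped almost entirely. Its averaged difference was -0.04 ± 0.10 (SE). Scd1, its close relative, had medians of 102 CPM in LacZ unstressed (79.3 to 149.8), 97.9 in LacZ stressed (79.95 to 105), 86.0 in knockdown unstressed (70.9 to 164) and 93.1 in knockdown stressed (79.8 to 143) and a difference of 0.02 ± 0.12.

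Fasn had medians of 12.02 CPM in LacZ unstressed (6.89 to 142), 10.4 in LacZ stressed (5.54 to 64.0), 16.3 in knockdown unstressed (2.58 to 72.9) and 11.8 in knockdown stressed (5.06 to 69.9), and a difference of -0.25 ± 0.56 (SE). That difference was 0.22 without LacZ unstressed 1 and -0.51 without knockdown stressed 3. Fads2 had medians of 17.6 CPM in LacZ unstressed (8.98 to 69.9), 14.4 in LacZ stressed (7.28 to 51.1), 18.5 in knockdown unstressed (4.85 to 51.6) and 16.1 in knockdown stressed (5.32 to 58.7), and a difference of -0.08 ± 0.41. Both genes were low and high in libraries of every group. Fads1, the partner desaturase of Fads2, had -0.02 ± 0.14 and Acaca -0.05 ± 0.07.

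**Figure D3:**
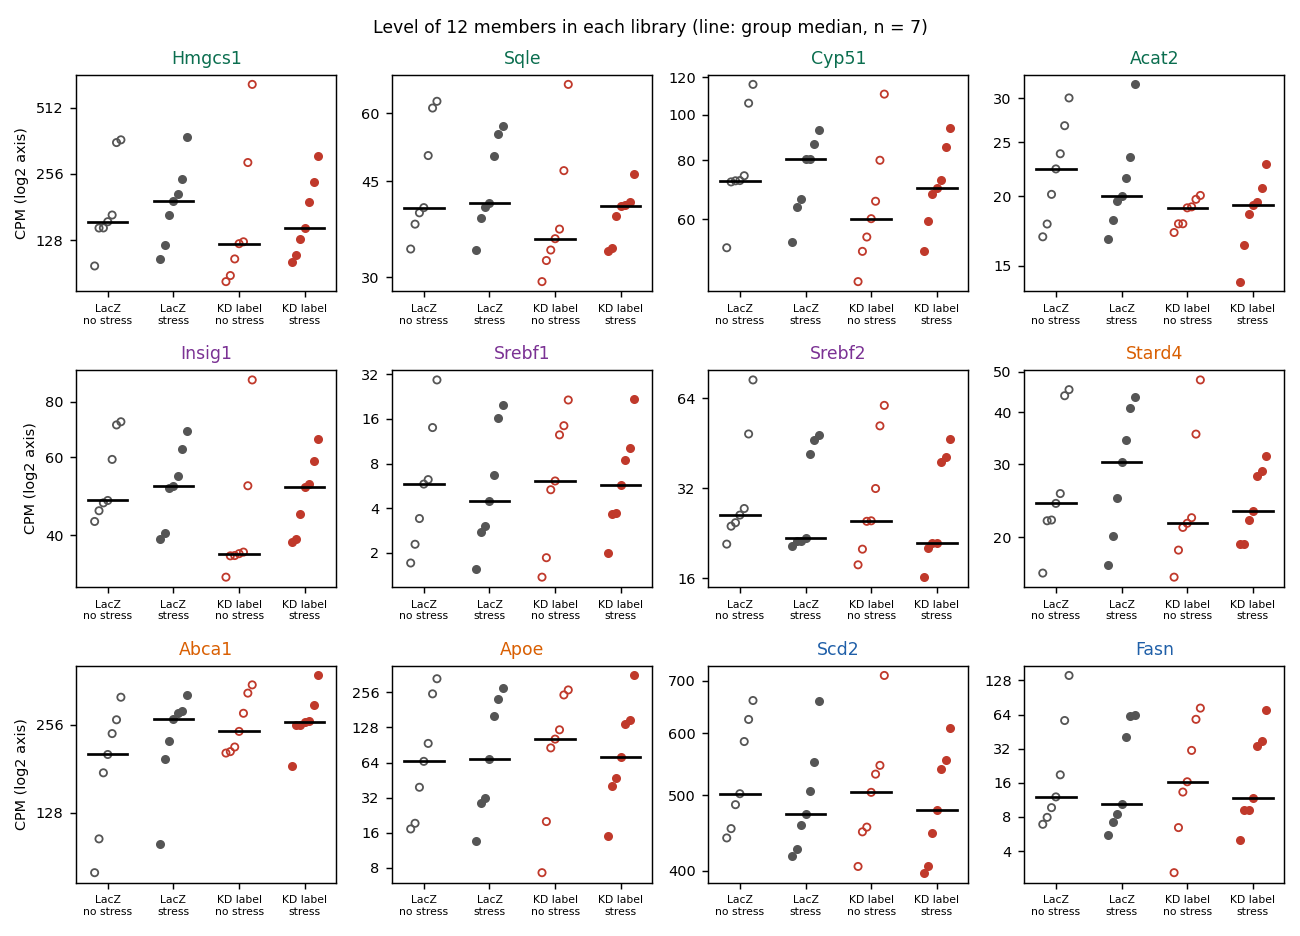
CPM of 12 genes in each of 28 libraries on a log2 axis, by group (grey LacZ, red labelled knockdown; open circles no stress, filled circles stress), with a line at each group median of 7. For Acat2 the knockdown-labelled libraries reach at most 22.8 CPM and LacZ libraries 31.8 CPM, while Srebf1, Apoe and Fasn spread over more than 10-fold inside each group.

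Entering the first component as a covariate narrowed the errors. Averaged over both stress states, 7 of 33 genes then had an unadjusted p under 0.05 (21.2%), against 7.8% of all genes. These were Acat2, Cyp51, Idi1, Msmo1, Sqle, Stard4 and Tm7sf2, all lower with the knockdown label. Their differences lay between -0.19 ± 0.07 (SE) for Cyp51 and -0.32 ± 0.12 for Tm7sf2. The smallest adjusted p over the 33 genes was 0.629 by edgeR's quasi-likelihood test, so none was called. Without stress the count was also 7 of 33, against 5.34% of all genes, and under stress 2 of 33, against 2.38%. The difference between these stress states was tested as an interaction with the covariate, and 0 of 33 genes reached an unadjusted p under 0.05, against 0.85% of all genes.

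Knockdown unstressed 7 weighed on the unstressed comparison. It had the lowest component of all libraries, 14.2% mitochondrial counts, and the highest oligodendrocyte marker sum. Without it, 7 of 33 genes had an unadjusted p under 0.05 (21.2%), against 0.93% of all genes, and the median of the 17 sterol enzymes was -0.28. These were Cyp51, Hsd17b7, Idi1, Insig1, Msmo1, Scd1 and Sqle, all lower with the knockdown label. All 7 are among the genes that fell along the component. Each had its highest knockdown unstressed value in this library, so leaving the library out lowers the group mean of each. The count can therefore not be read apart from the choice of library. The smallest adjusted p among the 33 genes was still 0.9999 by edgeR's quasi-likelihood test. With this library in, the count was 0. Without it and LacZ unstressed 1, a setting added after the data were seen, the averaged comparison had 7 of 33 genes (21.2%), against 1.84% of all genes. The unstressed one again had 7, against 1.36%. These 2 libraries were picked for lying farthest along the component, the lowest labelled knockdown and the highest LacZ. Leaving them out tends to lower the knockdown mean and raise the LacZ mean of genes that fall along it. All 7 genes of the averaged comparison fell along it, and so did those of the unstressed one except Nsdhl.

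**Figure D4:**
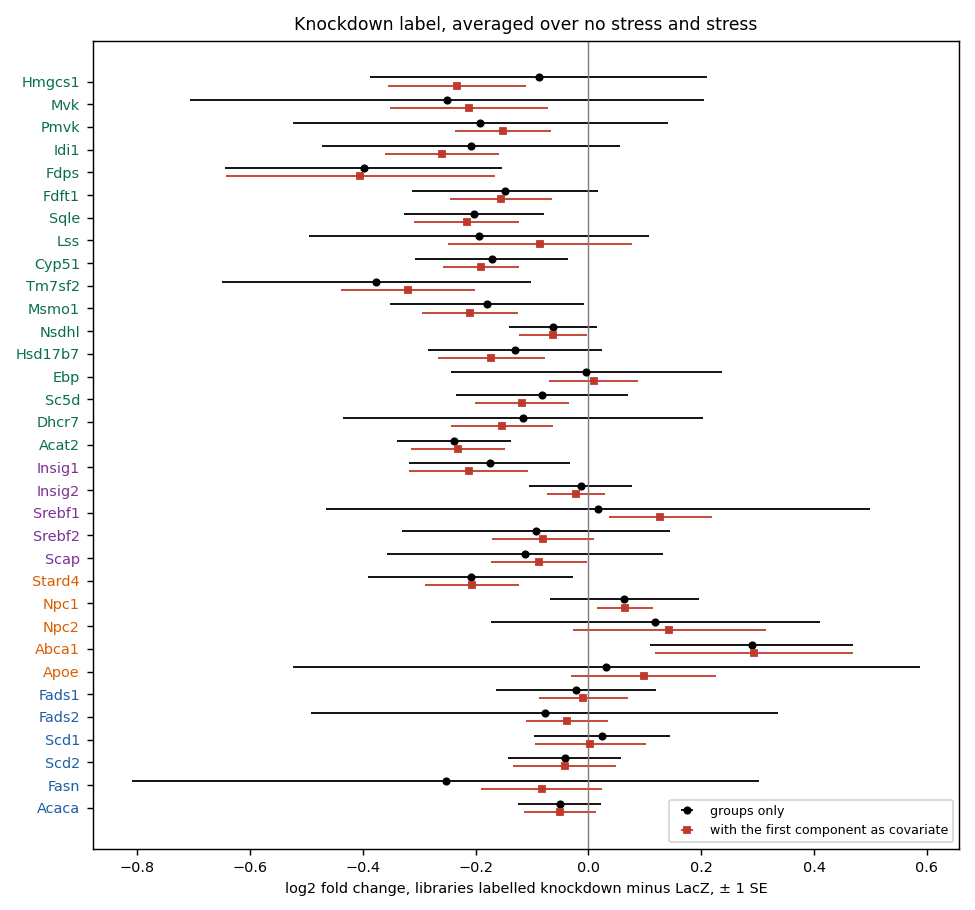
Log2 fold change of 33 genes (x axis, libraries labelled knockdown minus LacZ, averaged over both stress states, bars ± 1 SE), fitted with groups alone (black circles) and with the first component as a covariate (red squares). All 17 sterol enzymes from Hmgcs1 to Acat2 lie at or below 0 in the black fit, and Abca1 lies at 0.29 on the other side.

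Stress was compared within each virus. Under LacZ 0 of 33 genes were called by edgeR (all genes 0%), and 0 of 33 had an unadjusted p under 0.05 by edgeR (all genes 0.402%), DESeq2 (0.642%) or voomWithQualityWeights (3.51%). Under the knockdown label the counts at that level were 0 by edgeR (all genes 1.79%), 0 by DESeq2 (2.47%) and 3 by voomWithQualityWeights (4.88%), namely Insig1, Nsdhl and Scd1. Averaged over both viruses they were 0 by edgeR (all genes 2.21%), 0 by DESeq2 (3.16%) and 1 by voomWithQualityWeights (6.56%). For the interaction they were 0 by edgeR (0.355%), DESeq2 (0.381%) and voomWithQualityWeights (3%). No adjusted p was under 0.05 by any of the 3 tools. Each stress comparison shares its unstressed or stressed libraries with a knockdown comparison.

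The medians of the 17 sterol enzymes were -0.07 under LacZ, -0.03 under the knockdown label and -0.04 averaged, with 13, 10 and 13 below 0. All genes had medians of -0.01, -0.01 and -0.01, with 54.5%, 52.5% and 53.7% below 0. Acaca had the smallest p of the averaged comparison, with a log2 difference of -0.11 ± 0.07 (SE, unadjusted p = 0.139 and adjusted p = 0.9999, edgeR's quasi-likelihood test). It was lower in 11 of 14 stressed libraries than the mean log2 CPM of the unstressed libraries of both viruses together. Its medians were 151 CPM in LacZ unstressed (129 to 192), 142 in LacZ stressed (126 to 172), 148 in knockdown unstressed (129 to 194) and 135 in knockdown stressed (131 to 154), and the ranges overlapped. Npc2 came second at 0.32 ± 0.29, with medians of 49.9 CPM in LacZ unstressed (14.3 to 80.7), 42.8 in LacZ stressed (26.6 to 133), 50.5 in knockdown unstressed (16.8 to 89.9) and 56.9 in knockdown stressed (35.0 to 107). Abca1 was 0.27 ± 0.25 under LacZ and 0.05 ± 0.25 under the knockdown label. With the first component as a covariate the counts at an unadjusted p under 0.05 were 0 of 33 under LacZ (all genes 1.87%), 2 under the knockdown label (8.53%), namely Ebp and Scap, and 1 averaged (10.5%), Scap. In the interaction Scd1 came first at 0.27 ± 0.24 and Cyp51 second at 0.21 ± 0.27. Under the knockdown label Acaca (-0.12 ± 0.10) and Insig2 (-0.11 ± 0.13) had the smallest p.

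Other genes of the same pathways were taken from a list of 71, of which 70 were tested and Lcat was at 0. None passed an adjusted or an unadjusted p under 0.05 by edgeR in any of the 7 comparisons. Of the 34 other sterol genes tested, 18 were below 0 with the knockdown label averaged over stress, with a median of -0.01. Of the 36 other fatty acid genes, 23 were below 0, with a median of -0.03. The smallest p values in that comparison belonged to Rnf139, a ubiquitin ligase (-0.33 ± 0.19, SE), to Fabp7, a fatty acid binding protein of astrocytes (0.37 ± 0.22), and to Lbr, a sterol reductase of the nuclear envelope (0.21 ± 0.15). For stress they were Acsl1 (0.13 ± 0.07), Lrp8, an APOE receptor (-0.14 ± 0.08), and Fa2h, a fatty acid hydroxylase of myelin lipids (-0.41 ± 0.24). The single comparisons added Mylip, which marks lipoprotein receptors for degradation (0.23 ± 0.14), Scd4 (-0.45 ± 0.34) and Hacd2 (0.14 ± 0.11) for the knockdown label without stress, and Scd3 (-0.43 ± 0.29) for the interaction. Rnf139 had a mean of 0.474 CPM and Scd4 0.515 CPM, so both rest on low counts.

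Across libraries, whatever their group, the sterol enzymes varied together once the common component was removed. Before removal the median r over the 136 pairs of 17 enzymes was 0.226, with low-GC and high-GC enzymes running in opposite directions. After removal it was 0.585, with 64.7% of pairs above 0.5, against a median of 0.0035 and 7.97% over all pairs of tested genes. Of the 136 pairs 102 passed as positive and 3 as negative at a permutation p adjusted over 1056 pair relations under 0.05. The share of pairs of all tested genes passing this test is not given here, so these counts have no background beside them. The 3 negative pairs joined Ebp with Mvk, Lss and Tm7sf2. With group means removed as well the median was 0.597. It was 0.707 within the 15 libraries with a title number up to 20 and 0.511 within the other 13.

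The size of this coupling depends on what else is removed. After the second component was also removed the median r was 0.419, and on total counts after the first component it was 0.449. The second component held 14.7% of the variance and had r = 0.733 with excitatory neuron markers. Both settings were added after the data were seen. The part of cell composition in the coupling was not tested.

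Cyp51 and Msmo1, which both act in removing the methyl groups of lanosterol, gave the highest r, 0.939 (rho = 0.920, adjusted permutation p = 3.64e-05), and 0.918 without the 2 libraries farthest in Cyp51, LacZ stressed 4 and LacZ unstressed 5. Hmgcs1 and Sc5d had 0.933, Idi1 and Msmo1 0.913. Insig1 and Stard4, which are no enzymes of the pathway but known SREBP targets, varied with it. Insig1 had r = 0.913 with Hmgcs1 and 0.888 with Sqle, and Stard4 had 0.888 with Sqle. Their median r with the 17 enzymes was 0.716 for Insig1 and 0.727 for Stard4. Sqle was the enzyme with the highest median r with the other 16, at 0.799, and Ebp the lowest at -0.232. For Sqle and Insig1 r was 0.946 and 0.794 within the title numbers up to 20 and over 20.

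Srebf2 transcripts had a median r of 0.471 with the enzymes and Srebf1 transcripts -0.210. Srebf2 had r = 0.624 with Sqle (rho = 0.685), 0.795 with Scap and 0.845 with Fasn. Srebf1 had r = 0.0303 with Fasn (rho = 0.0887, adjusted permutation p = 0.889). Their own pair had 0.0577. Fasn and Acaca, consecutive enzymes of fatty acid synthesis, had r = 0.739, and Scd1 and Scd2 had 0.783. After the first component Srebf2 had r = 0.744 and Fasn 0.692 with excitatory neuron markers.

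Abca1 ran opposite to the enzymes. After the first component its median r with them was -0.640, and 16 of 17 pairs passed as negative while its pair with Ebp passed as positive. Of all 528 pairs of the 33 genes, 71 passed as negative, and a share over all tested genes is not given here. The enzymes vary together, so these 17 pairs are not independent. Abca1 itself had r = -0.843 with the second component. It had r = -0.774 with Sqle (rho = -0.723) and -0.789 with Fdft1 (rho = -0.689), with adjusted permutation p = 3.64e-05 for both r. Without the 2 libraries farthest in Sqle or Fdft1 these were -0.702 and -0.660, and within the title numbers up to 20 and over 20 the pair with Sqle had -0.841 and -0.656. Before removal its median r was -0.450 with TMM scaling, but 0.222 on total counts, where the sign turned. After removal of the first component it was -0.414 on total counts, and after removal of 2 components with TMM scaling it was -0.333. Npc2 had r = 0.875 with Abca1, and Acaca had -0.820 with it. Neuron markers moved with these genes: after the first component r with them was -0.669 for Abca1, -0.709 for Npc2, 0.744 for Srebf2 and 0.705 for Hsd17b7. Their part in the opposition of Abca1 and the enzymes was not tested. Oligodendrocyte markers, which had r = -0.0264 with the first component, were tested only before that component was removed. None of the 33 genes passed with them, though 29 had a positive r, among them 16 of the 17 enzymes. The r values with oligodendrocyte and astrocyte markers after removal of the first component are not given here. The coupling was described after that removal, and the part of oligodendrocyte content in it was not tested. With astrocyte markers Msmo1 (r = -0.446) and Stard4 (r = -0.507) passed on r before the component was removed, at adjusted permutation p = 0.0448 and 0.0154, with rho = -0.373 and -0.365 not passing, and r was -0.306 and -0.310 without the 2 libraries farthest in those markers.

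**Figure D5:**
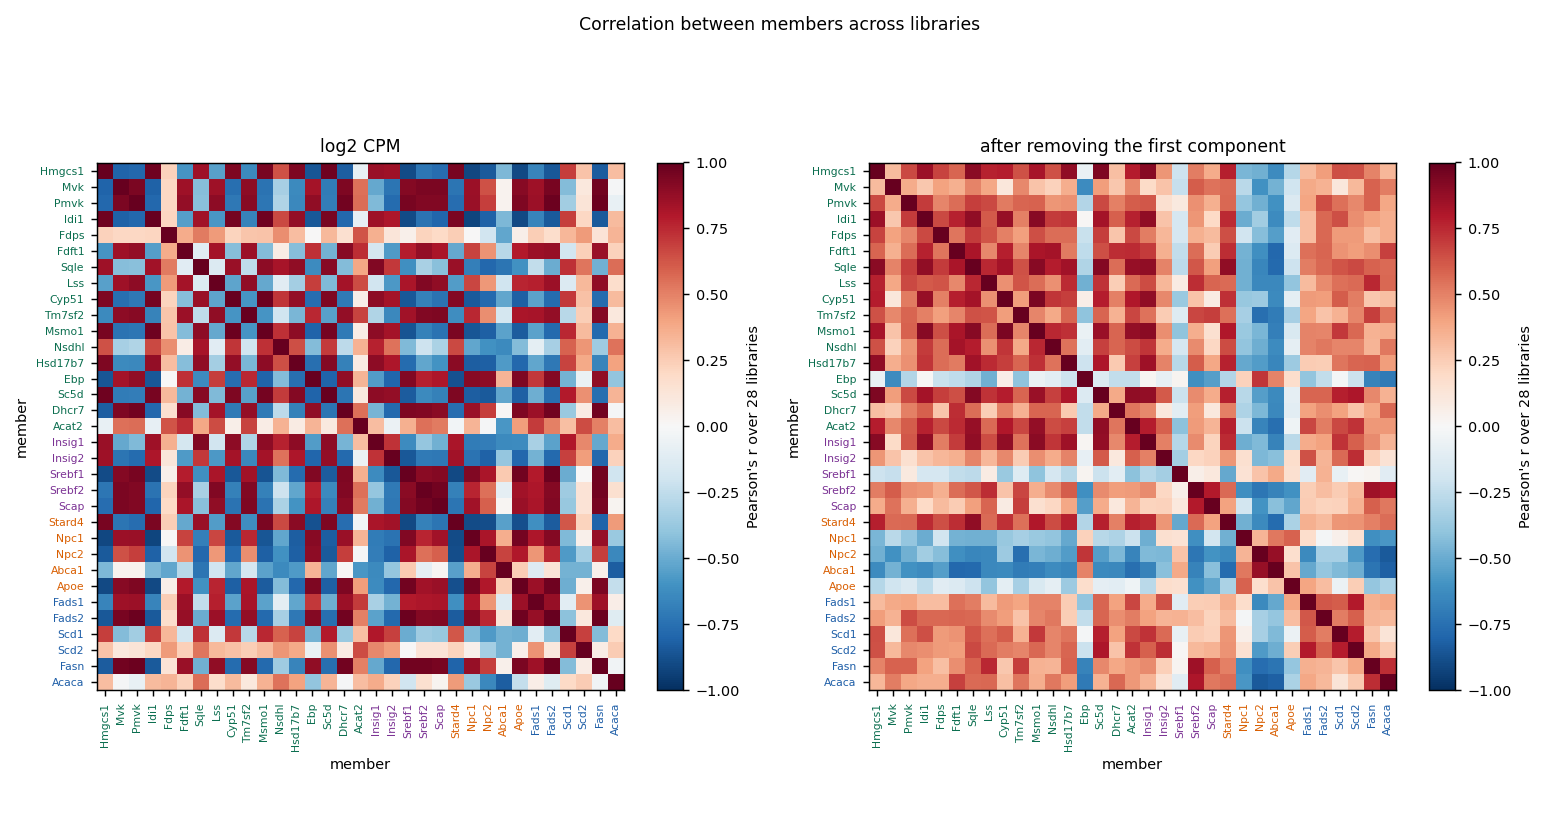
Pearson's r over 28 libraries between each pair of 33 genes, from log2 CPM (left) and after the first component was removed (right), with genes in the same order on both axes, grouped by role and coloured as in the names. On the left the enzymes form a checkered block with a median of 0.226, and on the right the block is nearly all red with a median of 0.585, while the rows of Npc2 and Abca1 are blue against it.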

How the data were processed

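The data are 28 total RNA libraries, each from the prefrontal tissue of 1 female mouse. The authors deposited whole-number counts of fragments per gene. Per the file headers, featureCounts 1.6.2 assigned read pairs to Ensembl 90 genes (GRCm38) from first to last base, without using strand, in alignments whose name says that duplicates were removed. HISAT2, Subread and DESeq2 are named in the submitters' processing notes without versions. Introns are therefore counted, and genes that overlap cannot be separated. Groups follow the virus and treatment labels; the members and lists were chosen with earlier results of these data known. Replicate numbers follow accession order and pair no mice.

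Counts were fitted with edgeR 4.0.16 in R 4.3.3: TMM factors, filterByExpr (19171 genes kept), 1 coefficient per group, robust quasi-likelihood tests of 7 comparisons and Benjamini-Hochberg adjustment over all genes, called under 0.05. Alternatives used DESeq2 1.42.0, limma 3.58.1 (voomWithQualityWeights), sva 3.50.0, other scalings and filters, covariates and each library left out. Scripts were tested on simulated counts. Log2 CPM for correlations used a prior count of 2, and components were computed without the 33 genes. Permutation tests of gene pairs were added after the data were seen. Every gene of the list was named, with full values for the key enzymes, regulators, carriers and desaturases and for the 2 genes with the smallest p in each comparison, and of other pathway genes the 3 with the smallest p.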

Additional observations from a re-analysis of the deposited data

Results flagged for a closer look

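Abca1 in LacZ stressed 4 stood apart from its group. Its level was 100.053 CPM, the lowest of the 7 libraries, and the other 6 lay between 196 and 322 CPM. On the log2 CPM scale, on which this was tested, the gap to the nearest library was 0.575 of the group's range, more than Dixon's critical value for 7 samples. On the CPM scale it was 0.432 and below that value. The library itself stood apart, with a second principal component of 105.7 against 67.7 in the next highest, and Abca1 had r = -0.843 with that component over the 28 libraries. The part of that component in the low value was not tested. Of 132 groups of 7 tested over the 33 genes, 1 was marked in this way, and chance marks about 1 in 20. Without this library the log2 difference of Abca1 between the knockdown label and LacZ under stress was 0.05, against 0.18 with it.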

How the results depend on the processing

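No gene of the list was called in any of the 7 comparisons under any setting run. The number of the 17 sterol enzymes below 0 with the knockdown label averaged over stress was 17, and 10 with voomWithQualityWeights. Leaving out each library in turn gave 12 to 17. The median log2 difference of the enzymes in that comparison ran from -0.23 to -0.15 when each library was left out. The median r of the 136 enzyme pairs was 0.226, and it was 0.585 after the first component, 0.419 after the first and second, 0.406 on total counts and 0.449 on total counts after the first component. The settings with total counts, with 2 components removed and without the 2 farthest libraries were chosen after seeing the data. The cause of these shifts was not tested. Of 3813 values of named genes under alternatives, 435 had another sign than reported, and in 0 of them did the reported value exceed 1 SE. Counts at an unadjusted p under 0.05 moved with the libraries, the covariates and the tool. For the unstressed comparison, 0 of 33 genes became 7 without knockdown unstressed 7 (all genes 0.93%) or without both farthest libraries (1.36%). The count was 7 with the first component as a covariate (all genes 5.34%) and 5 with voomWithQualityWeights (3.62%). It was 7 with 2 surrogate variables and 8 with the GC slope as a covariate. For the averaged comparison, 1 became 7 without both farthest libraries (all genes 1.84%) or with the first component as a covariate (7.8%). It became 8 with voomWithQualityWeights (6.31%) and 7 with the GC slope as a covariate. Shares over all genes with 2 surrogate variables or the GC slope are not given here, so those counts have no background beside them. The libraries left out lie at the ends of the first component, and most genes gained by leaving them out fell along it. Low counts limit Fdps, Mvk and Tm7sf2.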
